A study of Homo sapiens with 14 samples.

Results

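The genes described here are 10 splicing regulators, most of which are known as repressors: HNRNPL, its paralog HNRNPLL, the polypyrimidine tract-binding protein genes PTBP1, PTBP2 and PTBP3, and the heterogeneous nuclear ribonucleoprotein (hnRNP) genes HNRNPC, HNRNPK, HNRNPA2B1, HNRNPD and HNRNPH1. They were chosen by name, with HNRNPLL picked for its fall in knockdown, and each was found once among the 18006 genes of the count table. The study measured gene-level read counts by RNA-seq in 14 libraries of the human embryonic kidney cell line HEK 293, which is an established line. CFIm25 (gene NUDT21) and CFIm68 (gene CPSF6), subunits of the cleavage factor I complex, were lowered or raised. The groups were control cells with the genotype label wild type (n = 3), CFIm25 knockdown (n = 2), CFIm25 overexpression (n = 3), CFIm68 knockdown (n = 3) and CFIm68 overexpression (n = 3). The labels give siRNA with Lipofectamine RNAiMAX as the treatment for the knockdown. They do not say whether the controls were given any siRNA or vector, what construct drove overexpression, or whether libraries of a group came from separate cultures. The p-values below therefore rest on the spread between libraries of a group, and that spread may be only technical.

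hnRNP proteins bind nascent transcripts and take part in splicing, export, stability and translation of mRNA. PTB proteins bind pyrimidine-rich stretches near splice sites and often keep an exon out of the mRNA. PTBP1 is the widely expressed form, PTBP2 is best known from neurons and PTBP3 from blood cells. PTBP1 is known to lower PTBP2 output by having an exon of its transcript skipped. hnRNP L binds CA-rich RNA, and its paralog hnRNP LL is best known for the splicing of CD45 transcripts in lymphocytes. Cleavage factor I binds UGUA motifs upstream of cleavage sites and takes part in the choice of the polyadenylation site.

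Since CFIm binds UGUA, the annotated 3' ends of the members were searched for these letters, written TGTA in DNA, on the sense strand only, in the last 100 bases of each annotated coding transcript (GENCODE 29, hg38). Overlapping matches were not possible with this motif, and ends of a gene that lie close together share bases. HNRNPLL had 4 different ends, of which 2 held the motif. The other counts were 1 of 2 ends for HNRNPL, 2 of 3 for PTBP1, 2 of 2 for PTBP2 and 3 of 4 for PTBP3. Over the 10 members 28 of 42 ends (66.7%) held it, against 47.5% of the 31976 ends of 11914 tested genes. The sites below are those of HNRNPLL, the gene with the largest change among the members, and of its paralog, all of them, and for comparison those of the PTB genes that lie 44 to 53 bases before an end. Summed over its ends, a gene held 2 matches for HNRNPLL, 2 for HNRNPL, 6 for PTBP1, 3 for PTBP2 and 6 for PTBP3, so the PTB genes have further sites that are not shown. Each is shown 5′ to 3′ on the transcribed strand with the motif in capitals. All lie in exons of the annotated transcripts.
HNRNPLL, chr2:38562008-38562037, minus strand, 43 bases before the end at 38561978: gaaatcccatctcTGTAtccaaatcctact
HNRNPLL, chr2:38564044-38564073, minus strand, 25 bases before the end at 38564032: taagatcctgttcTGTAataaacatatttt
HNRNPL, chr19:38836467-38836496, minus strand, 92 bases before the end at 38836388: tttaaaaaattatTGTAcatgtgatttttt
HNRNPL, chr19:38836420-38836449, minus strand, 45 bases before the same end: tttgtgctgcccaTGTActcttggcacatt
PTBP1, chr19:812243-812272, plus strand, 53 bases before the end at 812312: tcgctgtggacgcTGTAgaggcaggttggc
PTBP1, chr19:812265-812294, plus strand, 46 bases before the end at 812327: aggttggccagtcTGTAcctggacttcgaa
PTBP2, chr1:96814725-96814754, plus strand, 52 bases before the end at 96814793: acatctttagaaaTGTAaaattcagtatag
PTBP3, chr9:112217749-112217778, minus strand, 46 bases before the end at 112217716: ttgctggcttaccTGTAaaatctgtggtct
PTBP3, chr9:112218466-112218495, minus strand, 44 bases before the end at 112218435: acaaatatagcatTGTAgcatgccttttaa
A match is a description of the letters in these windows. The counts per gene do not show which ends were used.

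Library totals ranged from 15822467 to 33895308 counts. The perturbed genes followed their labels. NUDT21 was at 514 ± 19.6 CPM (counts scaled to the effective library size, SD, n = 3) in the controls, 53.8 ± 1.20 with CFIm25 knockdown and 729 ± 55.6 with its overexpression, and CPSF6 was at 268 ± 5.78, 41.6 ± 0.996 with CFIm68 knockdown and 730.1 ± 17.4 with its overexpression. The knockdowns also moved each other's subunit, with CPSF6 at 533 ± 10.2 CPM in CFIm25 knockdown and NUDT21 at 232 ± 9.27 in CFIm68 knockdown. All 7 of 7 genes on a list known from HEK 293 cells passed the filter on low counts, with summed levels of 1374 to 1789 CPM. All marker sums in this paragraph are scaled to the total count of each library, not to its effective size. CFIm25 knockdown (1374 to 1396) and CFIm68 overexpression (1437 to 1525) lay below the controls (1578 to 1662), and the other groups overlapped them. The sums do not show single genes. Past an edgeR adjusted p of 0.05, CFIm25 knockdown had 0 of the 7 higher and 1 lower, where 47.6% of all genes passed. CFIm68 overexpression had 1 and 2 (29.8%), CFIm25 overexpression 3 and 3 (56.7%) and CFIm68 knockdown 2 and 2 (56.4%). Of 5 blood markers 0 passed it and their sum stayed at or below 0.365 CPM, with PTPRC and HBB listed at 0. Of 6 epithelial markers 2 were tested, and the sum ran from 27.9 to 32.5 CPM in the controls and from 51.0 to 54.9 in CFIm68 knockdown. It also lay above the controls in CFIm25 knockdown (39.2 to 43.6), CFIm25 overexpression (38.7 to 45.0) and CFIm68 overexpression (34.1 to 38.8). In CFIm68 overexpression the 2 tested epithelial markers were called in opposite directions by edgeR, 1 higher and 1 lower. Their median log2 change there was -0.11, so the higher sum does not hold for both. Both were called higher in the knockdowns and in CFIm25 overexpression. Of 5 mesenchymal markers 4 were tested, with DCN at 0, and the sum was 51.9 to 56.6 CPM in the controls, 68.8 to 72.1 with CFIm68 knocked down and 25.03 to 29.02 where CFIm68 was overexpressed. Their part in the results below was not tested. In bulk samples such as these, fewer cells of a kind and less RNA per cell cannot be told apart.

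Among the members that passed the filter on low counts, HNRNPLL (ENSG00000143889, chromosome 2, 38561978 to 38603586, minus strand, hg38) had the largest fall in both knockdowns. In the 3 controls it stood at 29.6, 24.7 and 27.2 CPM, from 453 to 521 counts. In CFIm25 knockdown it stood at 6.76 and 8.36 CPM, from 149 and 279 counts, and in CFIm68 knockdown at 4.94, 5.23 and 4.37 CPM, from 108 to 145 counts. No knockdown library reached 8.4 CPM and no other library was under 22.5 CPM, so the groups did not overlap. The level was 3.54-fold lower in CFIm25 knockdown (log2 change -1.83 ± 0.11, SE) and 5.60-fold lower in CFIm68 knockdown (-2.48 ± 0.11). HNRNPLL was picked for this fall, so these values are a description without a test. Of the 9362 genes that averaged 5 CPM or more, 10 had a lower log2 change in CFIm25 knockdown and 1 in CFIm68 knockdown. The CFIm68 knockdown libraries also lay below those of CFIm25 knockdown, by -0.66 ± 0.13 on the log2 scale, again as a description.

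Overexpression left HNRNPLL much nearer to the controls. It stood at 31.2, 28.8 and 32.9 CPM with CFIm25 overexpression and at 27.9, 22.5 and 26.0 CPM with CFIm68 overexpression, and both ranges overlapped that of the controls. Neither passed the edgeR threshold of an adjusted p under 0.05 (log2 change 0.19 ± 0.09, adjusted p = 0.065, and -0.09 ± 0.09, adjusted p = 0.46). The first passed without control replicate 1 (adjusted p = 0.030) and without CFIm25 overexpression replicate 2 (adjusted p = 0.037). Between the overexpression groups it was lower with CFIm68 (-0.28 ± 0.09, edgeR adjusted p = 0.0066), with no overlap of libraries. That call was lost without CFIm68 overexpression replicate 2 (-0.20, adjusted p = 0.077). It was also lost once the median change of the 50 neighbouring genes on the chromosome, -0.26, was taken off (-0.02, adjusted p = 0.86).

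**Figure D1:**
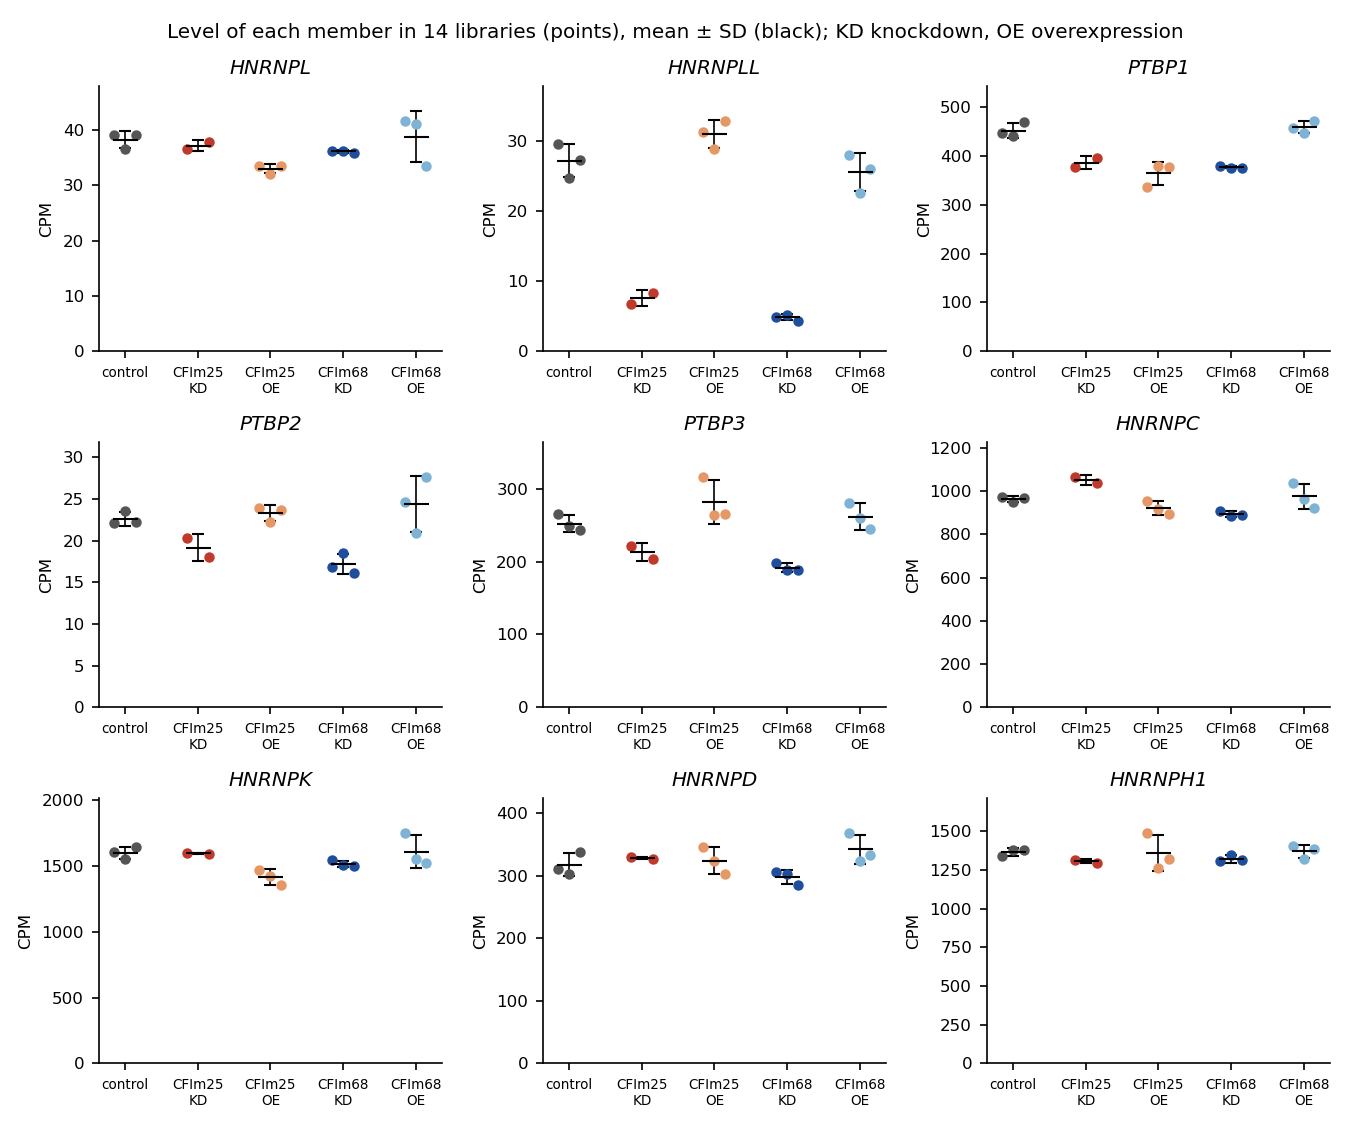
CPM of 9 members in each library (points) with the group mean and SD in black, each panel with its own linear axis from 0, and groups along the horizontal axis. HNRNPLL lies between 4.37 and 8.36 CPM in the 5 knockdown libraries and between 22.5 and 32.9 CPM in the others, while the other members vary far less.

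HNRNPL (ENSG00000104824, chromosome 19, 38836388 to 38852347, minus strand) did not follow its paralog. It was at 39.0, 36.5 and 39.1 CPM in the controls, 36.5 and 37.8 in CFIm25 knockdown and 36.2, 36.2 and 35.8 in CFIm68 knockdown. Neither knockdown passed the test, with log2 changes of -0.04 (95% interval -0.19 to 0.11) and -0.08 (-0.22 to 0.05). In CFIm25 overexpression it stood at 33.5, 32.1 and 33.4 CPM, below every control, and fell by 0.21 ± 0.07 on the log2 scale (edgeR adjusted p = 0.014). With the median of its 50 neighbours removed the change was -0.13 (adjusted p = 0.13). CFIm68 overexpression gave 41.6, 41.1 and 33.5 CPM, a spread wider than in any other group of this gene. HNRNPL shares 561 exonic bases with AC008982.1 on the same strand, and 2 pseudogenes carry its name in the annotation, so its count is uncertain where such reads were split or dropped.

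The balance of the paralogs was compared per kilobase of coding-transcript exon, as a ratio within each library. HNRNPLL to HNRNPL stood at 0.374, 0.335 and 0.344 in the controls, at 0.0917 and 0.109 in CFIm25 knockdown and at 0.0674, 0.0713 and 0.0604 in CFIm68 knockdown. In CFIm25 overexpression it was 0.461, 0.444 and 0.487, above every control, and in CFIm68 overexpression 0.332, 0.271 and 0.384, around them. HNRNPLL was thus the scarcer paralog in all 14 libraries. The knockdown ratios inherit the choice of HNRNPLL and carry no test.

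**Figure D2:**
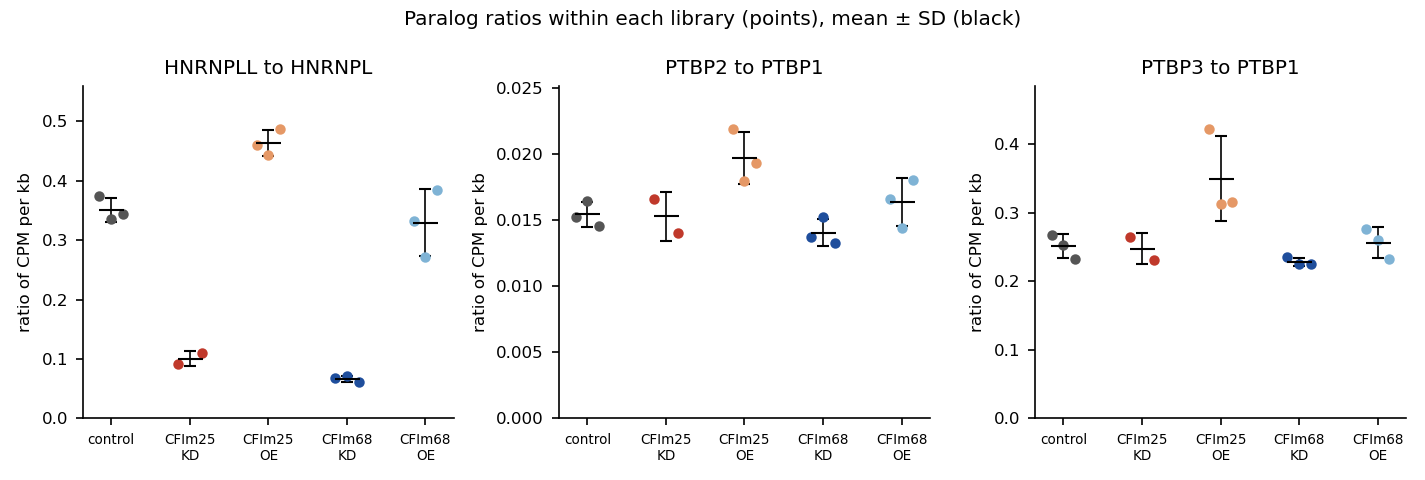
Ratios of paralogs within each library (points), from CPM per kilobase, with the group mean and SD in black on linear axes from 0. HNRNPLL to HNRNPL is lowest in the knockdowns, while PTBP3 to PTBP1 is highest in CFIm25 overexpression, where it runs from 0.312 to 0.422 against 0.233 to 0.267 in the controls.

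All of the PTB genes were lower in both knockdowns, by much less than HNRNPLL. PTBP1 (ENSG00000011304, chromosome 19, 797075 to 812327, plus strand) was at 446, 440.0 and 469 CPM in the controls. It stood at 377 and 395 CPM in CFIm25 knockdown and at 379, 376 and 375 in CFIm68 knockdown, all under the lowest control. It fell by 0.23 ± 0.06 (edgeR adjusted p = 0.0014) and by 0.26 ± 0.05 (adjusted p = 5.0e-05) on the log2 scale. The 50 genes around it on chromosome 19 moved in the same direction, with medians of -0.28 in CFIm25 knockdown, where 40 of 50 were below 0, and -0.26 in CFIm68 knockdown, where 38 of 50 were. With those medians removed PTBP1 was at 0.05 (adjusted p = 0.45) and -0.0023 (adjusted p = 0.97). CFIm25 overexpression gave 337, 379 and 377 CPM, a fall of 19.3% (log2 change -0.31 ± 0.05, edgeR adjusted p = 5.6e-06). There the neighbours' median was -0.19, with 41 of 50 below 0, and PTBP1 kept a change of -0.12 with it removed (adjusted p = 0.04994). CFIm68 overexpression, at 456, 447 and 472 CPM, overlapped the controls (0.02 ± 0.05, adjusted p = 0.78).

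PTBP3 (ENSG00000119314, chromosome 9, 112217716 to 112333667, minus strand) stood at 265, 249 and 243 CPM in the controls. It was at 222 and 204 CPM in CFIm25 knockdown and at 199, 188 and 188 in CFIm68 knockdown, with no overlap with the controls. The log2 change was -0.25 ± 0.07 in CFIm25 knockdown (edgeR adjusted p = 0.0052) and -0.40 ± 0.06 in CFIm68 knockdown (adjusted p = 4.8e-06), the latter a fall of 24.0%. The first was lost without CFIm25 knockdown replicate 2 (adjusted p = 0.11). Its 50 neighbours had medians of 0.03 and 0.06. CFIm25 overexpression gave 316, 264 and 265 CPM, which overlap the controls. The rise of 0.16 ± 0.06 passed the test (adjusted p = 0.030) but not without overexpression replicate 1 (0.08, adjusted p = 0.25), control replicate 2 (adjusted p = 0.079) or control replicate 3 (adjusted p = 0.11).

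PTBP2 (ENSG00000117569, chromosome 1, 96721665 to 96823738, plus strand) was at 22.1, 23.5 and 22.2 CPM in the controls. It stood at 20.3 and 18.0 CPM in CFIm25 knockdown and at 16.9, 18.6 and 16.1 in CFIm68 knockdown, below every control. The log2 change was -0.40 ± 0.09 in CFIm68 knockdown (edgeR adjusted p = 3.7e-04) and stayed past the threshold without each library in turn. In CFIm25 knockdown it was -0.25 ± 0.10 (adjusted p = 0.036), and the call was lost without control replicate 2 (adjusted p = 0.11), control replicate 3 (adjusted p = 0.051) or CFIm25 knockdown replicate 2 (adjusted p = 0.35). Both overexpressions overlapped the controls, at 22.2 to 23.9 and 20.9 to 27.7 CPM (adjusted p = 0.69 and 0.39).

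The other PTB genes were also read against PTBP1 within each library. The ratio of PTBP2 to PTBP1 per kilobase ran from 0.0146 to 0.0164 in the controls, from 0.0140 to 0.0166 in CFIm25 knockdown and from 0.0132 to 0.0152 in CFIm68 knockdown. The ratio of PTBP3 to PTBP1 ran from 0.233 to 0.267, from 0.231 to 0.264 and from 0.225 to 0.235 in the same groups. The ranges overlap those of the controls. In CFIm68 knockdown 2 of 3 libraries lay below every control for each ratio. They were replicates 1 and 3 for PTBP2 to PTBP1 (0.0137 and 0.0132) and replicates 2 and 3 for PTBP3 to PTBP1 (0.225 and 0.225). In CFIm25 overexpression, where PTBP1 was lower, PTBP2 to PTBP1 ran from 0.0180 to 0.0218 and PTBP3 to PTBP1 from 0.312 to 0.422, both above every control library. These ratios were not tested.

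HNRNPC, HNRNPK, HNRNPD and HNRNPH1 are abundant, with no change from control beyond 0.18 on the log2 scale in either direction. HNRNPC (ENSG00000092199, chromosome 14, 21209136 to 21269494, minus strand), which binds uridine tracts and is known to keep cryptic exons out, was at 971, 949.9 and 969 CPM in the controls. It stood at 1066.9 and 1035.2 CPM in CFIm25 knockdown and at 908, 885 and 889.5 in CFIm68 knockdown, on either side of every control. The rise in CFIm25 knockdown was 0.13 ± 0.05 (edgeR adjusted p = 0.047) and was lost without each library in turn and with the neighbours' median of 0.11 removed (0.02, adjusted p = 0.80). In CFIm68 knockdown the log2 change was -0.11 ± 0.05 (adjusted p = 0.0506), on the other side of the threshold. Between the knockdowns HNRNPC was lower with CFIm68, by 0.23 ± 0.05 on the log2 scale (edgeR adjusted p = 0.0013), and that call held without each library in turn. A total of 9 pseudogenes carry its name in the annotation and 0 of them are in the table.

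HNRNPK (ENSG00000165119, chromosome 9, 83968083 to 83980616, minus strand), a protein that binds C-rich RNA, was at 1610.2, 1553.2 and 1643.6 CPM in the controls and at 1599.5 and 1592.3 in CFIm25 knockdown, among the controls. CFIm68 knockdown gave 1545.1, 1505.4 and 1503.8 CPM, just under the lowest control, and did not pass the test (-0.08 ± 0.05, edgeR adjusted p = 0.18). CFIm25 overexpression gave 1472.9, 1421.7 and 1357.1 CPM, the lowest values of this gene (-0.18 ± 0.05, edgeR adjusted p = 0.0035). Its 50 neighbours were on balance higher there, with a median of 0.14. HNRNPK shares 110 exonic bases with MIR7-1 on the same strand, and 5 pseudogenes carry its name.

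HNRNPD (ENSG00000138668, chromosome 4, 82352498 to 82374503, minus strand), also known as AUF1 and best known for binding AU-rich elements, ran from 286 to 369 CPM over all libraries. It passed the test in none of the 6 comparisons by edgeR, with log2 changes of -0.14 to 0.11. With only the compared groups in the fit it was lower in CFIm68 than in CFIm25 knockdown (-0.14, adjusted p = 0.0060). HNRNPH1 (ENSG00000169045, chromosome 5, 179614178 to 179634784, minus strand), which binds G-rich RNA, ran from 1265.4 to 1491.8 CPM and passed in none of them either, with changes of -0.06 to 0.02. The 95% intervals against control reached no further than -0.17 and 0.10 for HNRNPH1. With its neighbours' medians removed HNRNPH1 passed in CFIm25 overexpression (0.13, adjusted p = 0.031), in CFIm68 overexpression (-0.15, adjusted p = 0.038) and between them (-0.22, adjusted p = 5.2e-04). These set HNRNPH1 against its neighbours, and their p-values leave out the spread of the median. Its own changes from control were -0.0049 and 0.005 in the overexpressions. HNRNPA2B1 (ENSG00000122566, chromosome 7, 26173057 to 26201529, minus strand) is listed at 0 in all 14 libraries. SFPQ and HNRNPUL1, which most cells use, are listed at 0 too. HNRNPA2B1 overlaps exons of CBX3 by 368 bases on the other strand. Nothing on its expression can be read from this table.

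The share of members called was near or below that of all genes. In CFIm25 knockdown 4 of 8 counted members passed, 1 higher and 3 lower, where 47.6% of the 12080 tested genes passed, 24.4% higher and 23.2% lower. HNRNPLL and HNRNPA2B1 are outside the 8. The count was 2 without control replicate 2, 2 without control replicate 3 and 1 without CFIm25 knockdown replicate 2. In CFIm68 knockdown 3 of 8 passed, all lower, against 56.4% of all genes (28.1% lower), and it was 3 without each library in turn. In CFIm25 overexpression 4 of 9 passed, PTBP3 higher and HNRNPL, PTBP1 and HNRNPK lower, against 56.7% (27.7% higher and 29.1% lower). In CFIm68 overexpression 0 of 9 passed by edgeR, DESeq2 or limma-voom, 0 had an unadjusted edgeR p under 0.05, and 29.8% of all genes passed (14.5% higher and 15.4% lower). The median log2 change over the counted members was -0.05, -0.10, -0.0049 and 0.02 in these comparisons, in that order, beside 0.0047, 8e-04, -0.0019 and 0.0088 over all tested genes. The 4 comparisons share the control libraries.

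**Figure D3:**
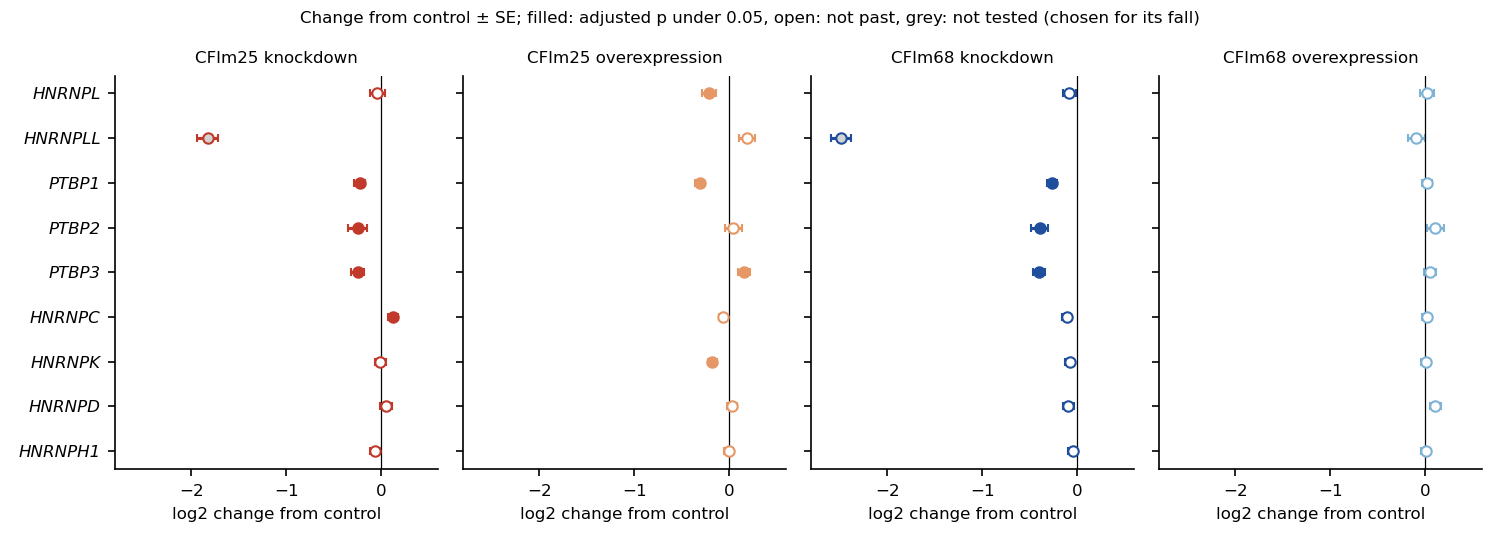
Log2 change from control (horizontal axis, with its standard error as the bar) of 9 members, 1 panel for each perturbation, with filled points past an edgeR adjusted p of 0.05 and open points not past it. The grey points are HNRNPLL in the knockdowns, at -1.83 and -2.48, which were not tested because the gene was chosen for that fall.

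The direct comparisons set one subunit against the other. Between the knockdowns 1 of 8 counted members differed, HNRNPC, where 24.2% of all genes did (11.1% higher and 13.2% lower). PTBP1 (-0.04 ± 0.05), PTBP2 (-0.15 ± 0.10) and PTBP3 (-0.15 ± 0.07) did not pass (edgeR adjusted p = 0.68, 0.28 and 0.12), which does not show that they were alike. Between the overexpressions 4 of 9 differed, 3 higher and 1 lower with CFIm68, against 63.7% of all genes (32.9% higher and 30.8% lower). PTBP1 was higher with CFIm68 than with CFIm25 by 0.33 ± 0.05 (edgeR adjusted p = 1.3e-06), HNRNPL by 0.23 ± 0.07 (adjusted p = 0.0065) and HNRNPK by 0.18 ± 0.05 (adjusted p = 0.0020), while HNRNPLL was lower. The 50 neighbours of PTBP1 had a median of 0.19 in this comparison, with 36 above 0. The HNRNPL libraries overlapped, with CFIm68 overexpression replicate 3 at 33.498 CPM and CFIm25 overexpression replicate 1 at 33.501. Without CFIm68 overexpression replicate 2 the count was 2, since HNRNPL (0.19, adjusted p = 0.052) and HNRNPLL were no longer past the threshold.

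Levels of different genes were ordered by CPM per kilobase of coding-transcript exon. In the controls the order was HNRNPK at 526 ± 15.01, HNRNPH1 at 367 ± 6.41, HNRNPC at 154 ± 1.87, PTBP1 at 122 ± 4.09, HNRNPD at 104 ± 5.96, PTBP3 at 30.6 ± 1.41, HNRNPL at 15.2 ± 0.591, HNRNPLL at 5.34 ± 0.473 and PTBP2 at 1.88 ± 0.0683 (SD, n = 3). No neighbours in that order overlapped between libraries. By this measure PTBP1 was the leading PTB gene and PTBP2 the scarcest member measured in the controls. The measure divides by all annotated coding-transcript exon of a gene, while the counts do not show which ends were used. The order of PTBP2 and HNRNPLL therefore depends on the length taken for each, here and in the knockdowns. The place of HNRNPL is limited too, since its count is uncertain. In CFIm25 knockdown HNRNPLL, at 1.49 ± 0.221 (n = 2), dropped beside PTBP2 at 1.59 ± 0.137, and their libraries overlapped. In CFIm68 knockdown HNRNPLL, at 0.953 ± 0.0858, lay below PTBP2 at 1.43 ± 0.103 without overlap. HNRNPD and PTBP1 overlapped in CFIm25 knockdown and in CFIm25 overexpression.

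Genes whose levels followed HNRNPLL most closely were sought by Pearson correlation of log2 CPM over the 14 libraries among 9353 genes that are not members. The libraries share 5 groups, so the values mainly describe the group pattern and carry no test. The 5 highest were PFN2, an actin-binding profilin (r = 0.985), CFAP44, a cilia and flagella protein (0.984), HNRNPR, another hnRNP (0.980), NIPSNAP3A (0.977) and the phosphatase PTP4A2 (0.976). PFN2 was at 162 ± 5.02 CPM in the controls, 60.1 ± 1.76 in CFIm25 knockdown and 41.0 ± 1.63 in CFIm68 knockdown. HNRNPR was at 206 ± 6.54, 131 ± 5.58 and 119 ± 1.83 CPM in the same groups. Among the members PTBP3 (0.915) and PTBP2 (0.876) were the most like HNRNPLL, and HNRNPL (-0.03) and HNRNPK (-0.05) the least.

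**Figure D4:**
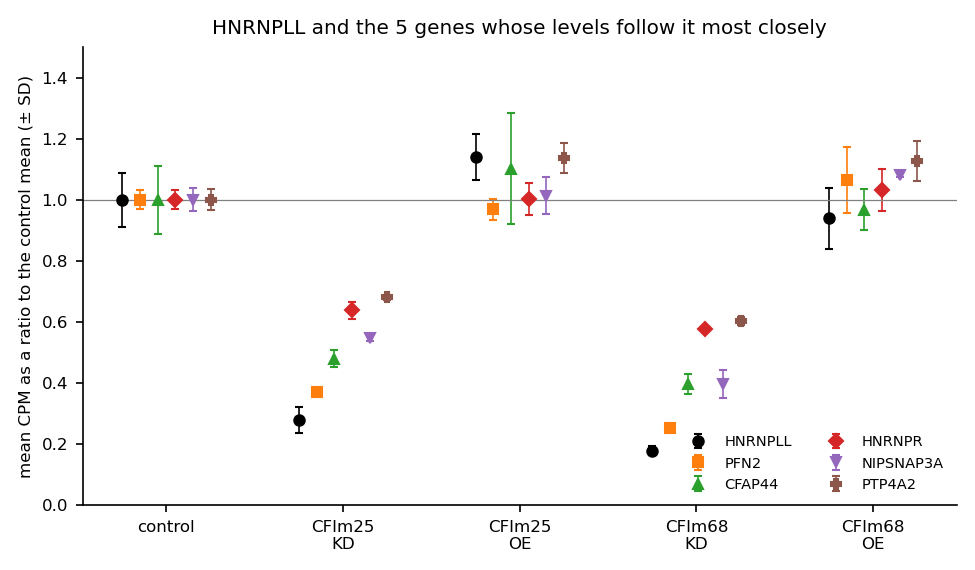
Mean CPM of HNRNPLL and the 5 genes most correlated with it, each divided by its own control mean, with SD bars, for the 5 groups on a linear axis from 0. HNRNPLL and PFN2 are the lowest in both knockdowns, and all 6 genes lie near 1 in the overexpression groups.

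Genes beside HNRNPLL on the chromosome changed much less than it did. Its 3 nearest tested genes at lower coordinates were RMDN2, CYP1B1 and ATL2, with log2 changes of -0.40, -0.22 and -0.20 in CFIm25 knockdown and -0.52, -0.04 and -0.22 in CFIm68 knockdown. At higher coordinates GALM (0.05 and -0.03), the splicing factor gene SRSF7 (-0.39 and -0.66) and GEMIN6 (0.45 and 0.31) followed. The median over its 50 neighbours was 0.05 in CFIm25 knockdown. In CFIm68 overexpression the same neighbours had a median of -0.24, with 42 of 50 below 0, while HNRNPLL itself was at -0.09.

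**Figure D5:**
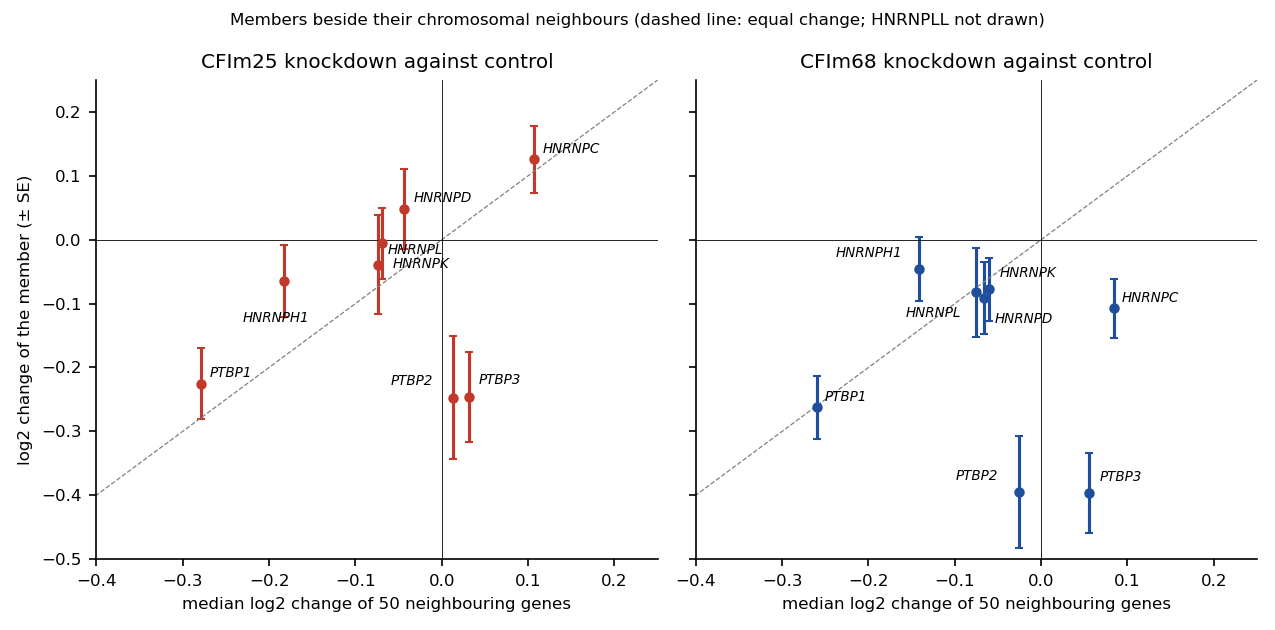
Log2 change from control of 8 members (vertical axis, with standard error) against the median log2 change of the 50 tested genes around each on its chromosome (horizontal axis), for the knockdowns. PTBP1 lies close to the dashed line of equal change, while PTBP2 and PTBP3 lie below it, and HNRNPLL is not drawn.

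Other hnRNP genes moved in both directions. Of 24 on the list 18 were tested. In CFIm25 knockdown 7 rose, 5 fell and 6 missed the threshold, and in CFIm68 knockdown 4 rose, 6 fell and 8 missed it, where 47.6% and 56.4% of all genes passed. Their median log2 change was 0.09 and 0.04 in these, against 0.0047 and 8e-04 over all genes. With the neighbours' medians removed it was 0.07 and -0.03, against -0.0017 and -3e-04, so the second changed sign. SYNCRIP, which encodes hnRNP Q, rose by 0.69 ± 0.06 and HNRNPH3 by 0.61 ± 0.06 in CFIm25 knockdown (edgeR adjusted p = 1.9e-10 and 2.1e-09). HNRNPR, a close relative of SYNCRIP, went the other way, at -0.65 ± 0.06 in CFIm25 knockdown and -0.79 ± 0.05 in CFIm68 knockdown (adjusted p = 1.5e-09 and 8.3e-13). HNRNPM fell by 0.23 ± 0.05 in CFIm25 knockdown, and HNRNPDL, the relative of HNRNPD, fell by 0.50 ± 0.05 in CFIm68 knockdown. In CFIm68 knockdown RALY rose by 0.50 ± 0.05 and PCBP4 by 0.46 ± 0.07, the latter sharing exonic bases with ABHD14B on the same strand. SYNCRIP likewise shares 343 exonic bases with AL589666.1. Naming by the largest change in a knockdown does not make the change particular to it. RALY was at 148 ± 5.88 CPM in the controls, 211 ± 1.20 in CFIm25 knockdown and 208 ± 1.88 in CFIm68 knockdown. HNRNPM was at 627 ± 17.3, 534 ± 32.1 and 504 ± 6.77 CPM in the same groups, and HNRNPH3 at 278 ± 5.13, 424 ± 2.45 and 291 ± 4.76. HNRNPDL fell by 0.175 ± 0.059 in CFIm25 knockdown too (edgeR adjusted p = 0.017). CFIm25 overexpression had 5 higher and 8 lower, where 56.7% of all genes passed, led by PCBP4 (0.47 ± 0.07) and HNRNPA3 (-0.56 ± 0.06). CFIm68 overexpression had 3 higher and 5 lower, where 29.8% passed, led by HNRNPDL (0.18 ± 0.05) and SYNCRIP (-0.34 ± 0.05).

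Partners of PTB and other splicing regulators, 33 on the list with 27 tested, also moved in both directions. In CFIm25 knockdown 3 rose, 8 fell and 16 missed the threshold, and in CFIm68 knockdown 8 rose, 11 fell and 8 missed it, against 47.6% and 56.4% of all genes past it, with medians of -0.0020 and -0.08. FUBP1, which binds U-rich RNA and DNA, fell from 324 ± 2.90 CPM to 143 ± 0.897 and 123 ± 2.48 (log2 change -1.18 ± 0.06 and -1.39 ± 0.05, edgeR adjusted p = 2.5e-15 and 4.9e-19). It was lower in CFIm25 overexpression too, at 202 ± 10.9 CPM (-0.68 ± 0.05, adjusted p = 3.2e-12), and higher in CFIm68 overexpression, at 379 ± 13.9 CPM (0.23 ± 0.05, adjusted p = 7.0e-04). PSPC1, a paraspeckle protein, fell by 0.66 ± 0.07 and by 0.68 ± 0.06. NOVA2, a neuronal splicing regulator, rose from 24.2 ± 2.51 CPM to 48.4 ± 2.73 and 53.0 ± 3.06 (adjusted p = 1.5e-10 and 6.1e-13). It was also higher in CFIm25 overexpression, at 44.9 ± 0.611 CPM, and lower in CFIm68 overexpression, at 13.8 ± 1.58. NOVA1 rose by 0.60 ± 0.08 in CFIm25 knockdown and CELF2 by 0.62 ± 0.08 in CFIm68 knockdown. NOVA1 was at 19.8 ± 0.979 CPM in the controls, 30.1 ± 0.110 in CFIm25 knockdown and 29.2 ± 0.520 in CFIm68 knockdown. CELF2 was at 52.2 ± 5.88, 55.7 ± 1.32 and 80.2 ± 1.52 CPM in the same groups. The PTB corepressor gene RAVER1 did not pass in CFIm25 knockdown (-0.16 ± 0.08, adjusted p = 0.095) and fell by 0.18 ± 0.07 in CFIm68 knockdown (adjusted p = 0.033). U2AF2, whose product binds the polypyrimidine tract, fell by 0.46 ± 0.06 and 0.48 ± 0.05 in the knockdowns and by 0.49 ± 0.05 in CFIm25 overexpression (adjusted p = 7.6e-09). RAVER1 and U2AF2 were named after their values were seen, for their known ties to PTB. RAVER1 shares 1693 exonic bases with AC011511.4 on the same strand, so its count is uncertain where such reads were split or dropped. In CFIm25 overexpression 7 were higher and 6 lower (all genes past, 56.7%), led by NOVA2 and by ESRP1 (-0.81 ± 0.07), and in CFIm68 overexpression 3 were higher and 5 lower (29.8%), led by MBNL2 (0.31 ± 0.08) and NOVA2 (-0.81 ± 0.09).

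Transcripts whose splicing PTB is reported to change, with an effect on their decay, were measured in part. DLG4 and GABBR1 are listed at 0 in every library. FLNA, which encodes filamin A, fell by 0.24 ± 0.09 in CFIm25 knockdown (edgeR adjusted p = 0.023) and by 0.30 ± 0.08 in CFIm68 knockdown (adjusted p = 0.0017), and HPS1 fell by 0.38 ± 0.08 in CFIm25 overexpression (adjusted p = 1.1e-04). The other tests of these genes against control did not pass, but with the replicate number as a block 1 of these 2 genes was called lower in CFIm68 overexpression. With the medians of 50 neighbours removed, both were called lower in CFIm25 overexpression. FLNA itself was at 57.3 ± 2.75 CPM there and at 52.3 ± 2.24 in the controls. Splicing itself cannot be read from counts per gene.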

How the data were processed

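RNA-seq gene counts of 14 HEK 293 libraries were used as the authors deposited them. Per the submitters' processing notes, cutadapt 1.16, STAR 2.7.1a and the build hg38 were used. How reads were assigned to genes and strands was not given in the sources used here. Per the labels' protocols the kit was TruSeq Stranded mRNA.

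Counts were tested in R 4.3.3 with edgeR 4.0.16 (quasi-likelihood, 1 coefficient per group, all 14 libraries). The filterByExpr filter (minimum count 10, minimum total 15) left 12080 genes. TMM factors were 0.973 to 1.05, p-values were adjusted by Benjamini-Hochberg over the tested genes, and the threshold was 0.05. Standard errors come from the quasi-likelihood statistic and intervals from the normal approximation. The test was tried on simulated counts first. Coordinates, exon lengths and sites are from GENCODE 29 on hg38.

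The members and gene lists were chosen with earlier results of these data known. Named are all members, NUDT21, CPSF6, the called list genes of largest change (2 each way per knockdown, 1 per overexpression, mean of at least 5 CPM), the 5 genes most like HNRNPLL and its 3 neighbours on each side. Alternatives were no filter, median-ratio size factors, at least 1 CPM in 3 libraries, a replicate block, DESeq2 1.42.0, limma-voom 3.58.1, only the compared groups, removal of the medians of 50 neighbours, and leaving out each library. Where the neighbours' median was removed, the standard error of the gene was kept. Those p-values thus take the median as known without error and compare a gene with its neighbours. Deviations of same-numbered libraries of the controls and CFIm68 overexpression were correlated over genes, each r over 0.1 (0.191, 0.112 and 0.136). The same correlation was not computed between libraries of different numbers, so these values do not show that the numbers pair the groups. The labels name no shared source. Figures used Python 3.11.15, pandas 2.3.3 and matplotlib 3.10.9.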

Additional observations from a re-analysis of the deposited data

How the results depend on the processing

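The count of members called moved by over 1.5 times with the neighbours' medians removed, to 2 from 4 in CFIm25 knockdown and to 1 from 0 in CFIm68 overexpression, and in CFIm68 against CFIm25 knockdown from 1 to 2 with no filter and to 3 with only the compared groups. Leaving out each library gave 1 to 3 members in CFIm25 knockdown, 3 to 3 in CFIm68 knockdown, 3 to 5 with CFIm25 overexpressed, 0 to 0 with CFIm68 overexpressed, 1 to 1 between knockdowns and 2 to 5 between overexpressions. With 1 CFIm25 knockdown library left, that library is assumed to vary like the other groups. The cause was not tested. Over all genes, 2396 passed in CFIm68 overexpression with the neighbours' medians removed (3605 as reported), and 1465 between knockdowns without CFIm25 knockdown replicate 1 (2929). HNRNPC in CFIm68 knockdown passed under median-ratio factors (adjusted p = 0.043), the CPM filter (0.036), DESeq2 (0.032), limma-voom (0.036), only the compared groups (0.013) and neighbours' medians removed (9.99e-04).

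The correlation of deviations of same-numbered libraries was -0.10 to 0.40 and over 0.1 in 11 of 26 pairs. All 3 pairs exceeded 0.1 only between the controls and CFIm68 overexpression, where the replicate block changed no call of a member. CFIm25 and CFIm68 overexpression had 0.401, 0.0152 and 0.310, and in the other comparisons at least 1 pair was lower than 0.1. CFIm25 knockdown and CFIm25 overexpression, which were not compared here, had 0.208 in replicate 1 and 0.166 in replicate 2. With the replicate block 3 members passed in CFIm25 knockdown, without HNRNPC (adjusted p = 0.058), HNRNPC passed in CFIm68 knockdown (0.029) and PTBP3 between overexpressions (0.036).

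Of the results that changed sign, PTBP1 in CFIm25 knockdown had passed the test. With the neighbours' medians removed, log2 changes in CFIm25 knockdown became 0.0353 for HNRNPL, 0.0536 for PTBP1, 0.0634 for HNRNPK and 0.118 for HNRNPH1. In CFIm25 overexpression they became 0.13 for HNRNPH1 and -0.0279 for HNRNPD, in CFIm68 knockdown 0.10 for HNRNPH1, in CFIm68 overexpression -0.068 for HNRNPK, -0.15 for HNRNPH1 and 0.14 for HNRNPLL, and between overexpressions -0.22 for HNRNPH1 and -0.0184 for PTBP2. With no filter HNRNPK in CFIm25 knockdown was at 0.0037. HNRNPH1 was at 0.0064 (CPM filter) and 0.0026 (compared groups) in CFIm25 overexpression, at -0.0035 (compared groups) in CFIm68 overexpression, and at -0.0057 (CPM filter) and -0.0089 (compared groups) between overexpressions, and HNRNPK was at -0.0013 (compared groups) in CFIm68 overexpression. Leaving out 1 library gave -0.0275 to 0.0129 for HNRNPK in CFIm25 knockdown, -0.0083 to 0.0818 for HNRNPD and -0.066 to 0.0467 for HNRNPH1 in CFIm25 overexpression, -0.0307 to 0.115 for HNRNPL, -0.0581 to 0.0463 for HNRNPK, -0.0292 to 0.0558 for HNRNPC, -0.002 to 0.0988 for PTBP3 and -0.0136 to 0.0309 for HNRNPH1 in CFIm68 overexpression, and -0.0502 to 0.0626 for HNRNPH1 and -0.0383 to 0.166 for PTBP2 between overexpressions. Of 738 recomputed member changes 659 were judged the same. For most this means the same direction and side of the threshold. For HNRNPLL in the knockdown comparisons, which had no test, it means a log2 change within the larger group SD of the reported value.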
